A study of Mus musculus with 16 samples.

Results

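The 10 genes described here belong to the core and the output arm of the mammalian circadian clock. They were taken by symbol from the count table, which lists 24421 entries, and all 10 had enough reads to be tested among 13522 genes. The activators are Arntl (encoding BMAL1), Clock and Npas2, the period genes are Per1, Per2 and Per3, the REV-ERB receptors are Nr1d1 and Nr1d2, and the proline and acidic amino acid-rich basic leucine zipper (PAR bZIP) factors are Dbp and Hlf. Expression was measured by sequencing of polyadenylated RNA from mouse ventricles, in 16 libraries of 4 groups with 4 libraries each.

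The groups cross genotype with surgery. JP2CR mice are homozygous for a Jph2 knock-in that lacks the codons for residues 563 to 568, which makes junctophilin-2, the protein that ties the transverse tubules to the sarcoplasmic reticulum, resistant to the protease calpain. WT mice are their wild-type littermates, and all mice are labelled as male and as strain C57BL/6N. At 9 to 10 weeks of age the mice were operated on, with either a sham operation or transverse aortic constriction (TAC), a narrowing of the aorta against which the left ventricle must pump. The ventricles were collected 5 weeks later. Libraries are named below by genotype, surgery and replicate number, for example WT TAC 2. The labels give no hour of day for the collection of the tissue.

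BMAL1 pairs with CLOCK or NPAS2 and binds E-box sequences, where the pair turns on the period and cryptochrome genes, Nr1d1, Nr1d2 and Dbp. PER and CRY proteins then block that pair, and the REV-ERB proteins repress Arntl, so that Arntl and the E-box targets peak at opposite times of day. The heart runs its own copy of this loop, which drives daily rhythms in contraction, substrate use and electrical currents.

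In WT TAC, JP2CR sham and JP2CR TAC each of the 10 clock genes varied more between libraries of the group than the median gene did, and over the 16 libraries 9 of them varied together. Nr1d1 followed them less closely, and took the same signs when 3 libraries that held Xist counts were left out. Arntl and Npas2 were high where Dbp, Nr1d2 and the period genes were low. After TAC in WT mice, Clock was 1.54-fold higher, Nr1d1 stood at 0.553 and Hlf at 0.367 of the sham level, and these 3 genes passed the test. With all 16 libraries no clock gene passed it in JP2CR mice or between the genotypes. Some did when the 3 libraries with Xist counts were left out. Of all genes tested, TAC called 21.1% higher and 20.8% lower in WT mice, and 20.7% each way in JP2CR mice.

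The depth was 9966782 to 16609732 counts per library, so that the limit that 3 counts allow lies between 0.185 and 0.314 counts per 1000000 counts (CPM), and the lowest count of any clock gene in a library was 33. CPM are relative to a library total scaled by edgeR's TMM factors. Jph2 itself was at 589 to 750.0 CPM in every library, and since the deletion covers a few codons, the count of the gene does not check the genotype. The defining cardiomyocyte markers were high in all 16 libraries, at a summed 91876 to 140309 CPM. Xist, the RNA of the inactive X chromosome, stood at 189 and 196 CPM in libraries 3 and 4 of JP2CR sham, at 141 CPM in JP2CR TAC 4 and at 0.266 CPM or less in the other libraries, against the label of male mice. Libraries 3 and 4 were placed by the genes that differed at least 2-fold between libraries 1 and 2 and reached 20 CPM in the higher one. WT TAC 3 and JP2CR TAC 3 lay between libraries 1 and 2 of their groups for 100% of these genes (71 and 63 genes). Their median position was 0.507 and 0.464 of the way from library 2 to library 1, on CPM without logs. WT TAC 4 lay between libraries 1 and 2 for 95.8% of the same 71 genes (median 0.448). WT sham 3 and 4 lay between those of their group for 100% of 15 genes (0.495 and 0.318). Results are therefore also given without the 3 Xist-positive libraries, and without WT TAC 3 and JP2CR TAC 3.

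The promoter of a clock gene can hold the elements through which the loop closes. Promoter windows of 250 bases before the transcript start were taken from RefSeq on GRCm38.p6, where 9 of the 10 genes had 13 windows. Per2 is named only. Both strands were searched for the E-box CACGTG, the E-prime box CACGTT, the D-box TTATGTAA, the ROR and REV-ERB core in the forms TAGGTCA and TGGGTCA, and the cAMP response element TGACGTCA. These letters do not overlap one another in the matches found. The 4 windows with a match are shown, 5′ to 3′ on the strand of the gene, with the match in capitals: Per1 on chr11:69098699-69098948 (plus strand), Nr1d1 on chr11:98775378-98775627 (minus), Per3 on chr4:151044666-151044915 (minus) and Hlf on chr11:90390918-90391167 (minus).
Per1: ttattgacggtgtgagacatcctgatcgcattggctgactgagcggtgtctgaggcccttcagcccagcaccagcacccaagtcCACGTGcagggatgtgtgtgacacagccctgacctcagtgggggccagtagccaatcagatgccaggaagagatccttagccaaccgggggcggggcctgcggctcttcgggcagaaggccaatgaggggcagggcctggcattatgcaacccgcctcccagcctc
Nr1d1: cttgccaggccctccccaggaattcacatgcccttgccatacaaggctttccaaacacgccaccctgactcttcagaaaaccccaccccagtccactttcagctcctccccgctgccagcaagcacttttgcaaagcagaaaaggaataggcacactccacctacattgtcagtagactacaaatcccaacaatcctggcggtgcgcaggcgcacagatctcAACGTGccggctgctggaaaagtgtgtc
Per3: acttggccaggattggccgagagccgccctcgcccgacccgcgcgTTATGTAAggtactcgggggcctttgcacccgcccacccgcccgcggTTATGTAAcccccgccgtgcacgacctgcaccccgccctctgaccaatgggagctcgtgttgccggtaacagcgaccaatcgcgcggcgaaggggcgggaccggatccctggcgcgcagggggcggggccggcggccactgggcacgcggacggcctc
Hlf: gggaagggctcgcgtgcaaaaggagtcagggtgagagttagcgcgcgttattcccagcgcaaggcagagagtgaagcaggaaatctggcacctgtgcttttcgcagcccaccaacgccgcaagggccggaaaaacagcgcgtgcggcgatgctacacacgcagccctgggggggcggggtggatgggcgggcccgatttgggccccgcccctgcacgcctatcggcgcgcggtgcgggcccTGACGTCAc
The Per1 window holds 1 E-box, 166 bases before the start, a sequence found in 6.02% of 32851 windows of that length. Nr1d1 holds 1 E-prime box, 28 bases before the start and read on the printed strand as AACGTG, against 3.85% of windows. Per3 holds 2 D-boxes, 158 and 205 bases before the start, against 0.819%, and the D-box is the element that DBP and HLF bind. Hlf holds 1 cAMP response element, 9 bases before the start, against 1.55%. The ROR and REV-ERB core was in none of the 13 windows and in 5.38% of all. A match describes the sequence and is not a measured site, and a window without one says only that these letters are not in these 250 bases.

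**Figure D1:**
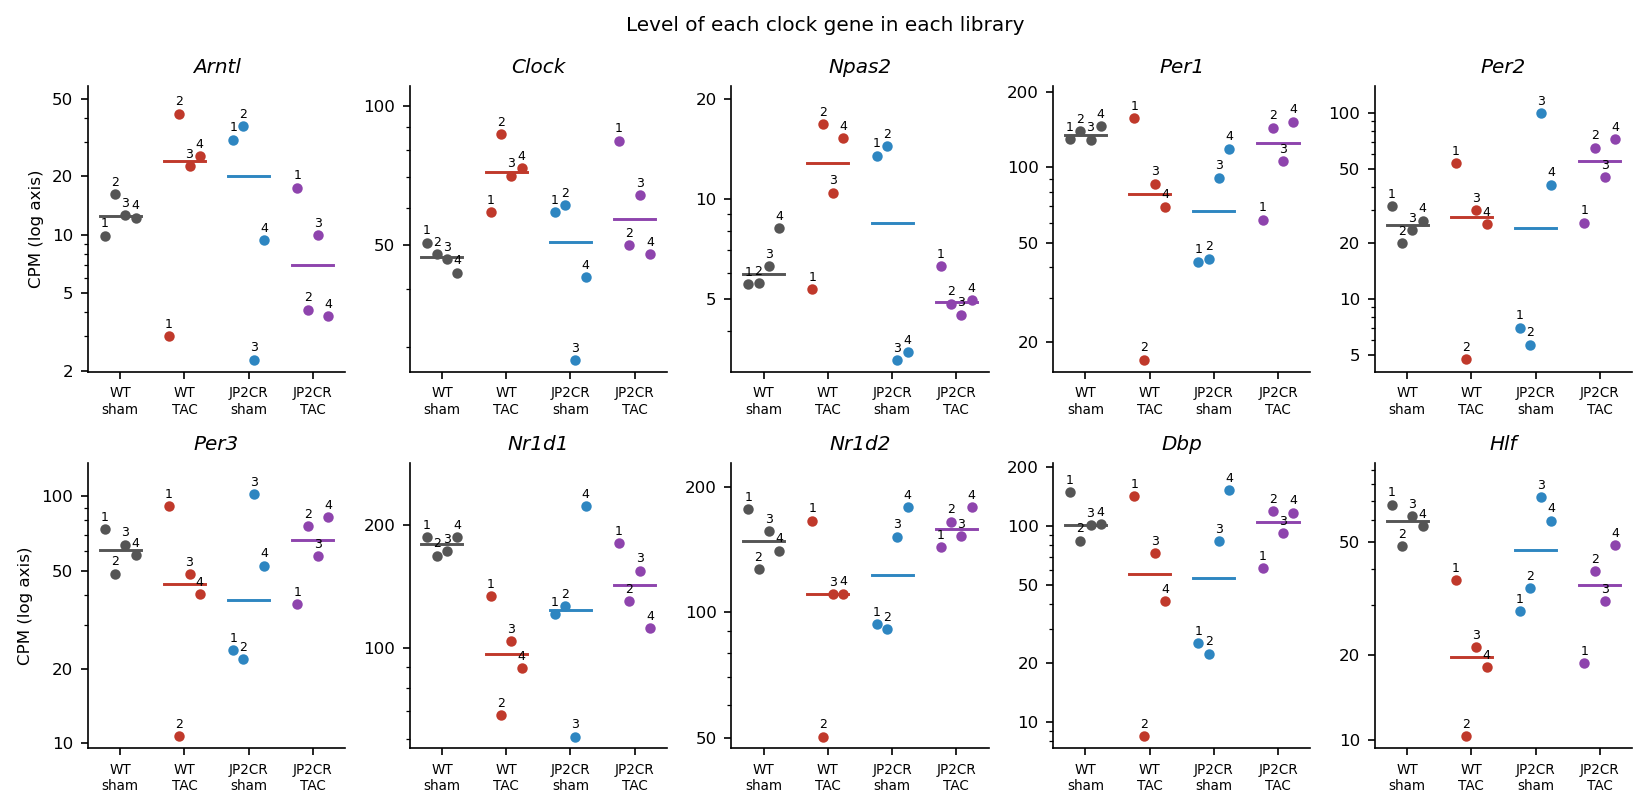
Level of each of the 10 clock genes in each of the 16 libraries, in CPM on a log axis that differs between panels. Points are libraries, labelled by replicate number, and lines are group medians; the WT sham libraries lie close together, whereas WT TAC 1 and 2, and JP2CR sham 1 and 2 against 3, lie far apart for Arntl, Per2 and Dbp.

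Arntl lies on chr7:113207465-113314126 (plus strand, GENCODE M21 on GRCm38) and encodes BMAL1, the partner that both CLOCK and NPAS2 need. Its level was 9.90, 16.2, 12.6 and 12.3 CPM in WT sham 1 to 4 and 3.02, 42.1, 22.5 and 25.5 CPM in WT TAC 1 to 4. In the JP2CR libraries it was 30.9, 36.2, 2.28 and 9.41 CPM after sham and 17.5, 4.11, 9.96 and 3.81 CPM after TAC. WT TAC 1 thus lay below every WT sham library and the other WT TAC libraries above every one, and the highest library, WT TAC 2, held 18.4 times the level of the lowest, JP2CR sham 3. The log2 fold change of TAC was 0.87 (SE 0.65) in WT and -1.15 (SE 0.69) in JP2CR mice, and neither was called, with adjusted p-values of 0.307 and 0.197 in edgeR's quasi-likelihood test.

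Clock, on chr5:76209868-76304792 (minus strand), encodes the histone acetyltransferase partner of BMAL1. It stood at 50.5, 47.7, 46.6 and 43.5 CPM in WT sham and at 58.7, 86.9, 70.5 and 73.3 CPM in WT TAC, so the lowest WT TAC library lay above the highest WT sham library. JP2CR sham had 58.9, 60.9, 28.1 and 42.6 CPM and JP2CR TAC 84.0, 49.9, 64.0 and 47.7 CPM, and these groups overlap. The log2 fold change in WT was 0.62 (SE 0.20, 95% interval 0.20 to 1.05, edgeR adjusted p = 0.0192), higher in 4 of 4 WT TAC libraries than in any WT sham library. In JP2CR mice it was 0.37 (SE 0.20, adjusted p = 0.155).

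Npas2, on chr1:39193731-39363236 (plus strand), encodes a paralog of CLOCK that can take its place. WT sham had 5.54, 5.59, 6.27 and 8.18 CPM and WT TAC 5.35, 16.9, 10.5 and 15.3 CPM, with WT TAC 1 below all WT sham libraries and the other three above them. JP2CR sham had 13.5, 14.5, 3.27 and 3.45 CPM, and JP2CR TAC lay inside that range at 6.29, 4.84, 4.48 and 4.95 CPM. The log2 fold change was 0.91 (SE 0.40, adjusted p = 0.0794) in WT and -0.75 (SE 0.42, adjusted p = 0.169) in JP2CR mice, neither of them called.

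The period genes encode the repressors of the loop. Per2, on chr1:91415982-91459324 (minus strand), was at 31.4, 19.9, 23.3 and 26.3 CPM in WT sham and at 53.8, 4.71, 29.9 and 25.2 CPM in WT TAC. JP2CR sham had 6.99, 5.67, 99.7 and 41.0 CPM and JP2CR TAC 25.7, 64.9, 45.1 and 72.1 CPM. Per2 had the widest range of the 10 genes, with JP2CR sham 3 at 21.2 times the level of WT TAC 2, and the libraries at either end are those at the opposite ends for Arntl. Its log2 fold change of TAC was 0.17 (SE 0.69) in WT and 0.41 (SE 0.65) in JP2CR mice.

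Per1, on chr11:69095217-69109960 (plus strand), and Per3, on chr4:151003652-151044665 (minus strand), followed the same order of libraries in WT TAC. Per1 was at 158, 17.1, 86.2 and 69.8 CPM in WT TAC 1 to 4, against 129 to 146 CPM in WT sham, so WT TAC 1 lay above all WT sham libraries and the other 3 below them. Per3 was at 90.9, 10.7, 48.4 and 40.1 CPM in WT TAC, against 48.6 to 73.5 CPM in WT sham. In JP2CR mice Per1 ranged from 42.1 to 119 CPM after sham and from 61.9 to 152 CPM after TAC, and Per3 from 21.9 to 102 and from 36.7 to 82.2 CPM. The log2 fold changes were -0.72 (SE 0.44) for Per1 and -0.36 (SE 0.48) for Per3 in WT, and 0.66 (SE 0.45) and 0.32 (SE 0.48) in JP2CR mice, none of them called.

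Nr1d1, on chr11:98767932-98775333 (minus strand), encodes REV-ERB alpha, the heme-binding repressor of Arntl. WT sham had 187, 169, 173 and 187 CPM and WT TAC 134, 68.6, 104 and 89.4 CPM, so every WT TAC library lay below every WT sham library. JP2CR sham spread from 60.7 CPM in library 3 to 223 CPM in library 4, with 121 and 127 CPM in libraries 1 and 2, and JP2CR TAC had 181, 130.4, 155 and 112 CPM. The log2 fold change in WT was -0.85 (SE 0.27, 95% interval -1.42 to -0.29, edgeR adjusted p = 0.0162), and in JP2CR mice it was 0.13 (SE 0.27, adjusted p = 0.730). Nr1d1 shares 263 exon bases (8.55% of its exons) with the antisense gene Thra, which was at 97.1 to 115 CPM in WT sham and 72.9 to 79.5 CPM in WT TAC, and since the strand setting of the counting is not given in the sources used here, the Nr1d1 count is uncertain to the extent that the shared bases were counted for either gene.

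Nr1d2, on chr14:18204054-18239127 (minus strand), encodes REV-ERB beta. It was at 127 to 177 CPM in WT sham and at 166, 50.3, 110.4 and 111 CPM in WT TAC. JP2CR sham ranged from 91.2 to 179 CPM, and JP2CR TAC from 143 to 179 CPM. Libraries 2, 3 and 4 of WT TAC lay below all WT sham libraries, and library 1 within them. Its log2 fold change was -0.46 (SE 0.26, adjusted p = 0.167) in WT and 0.31 (SE 0.26, adjusted p = 0.354) in JP2CR mice.

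Dbp, on chr7:45705088-45710203 (plus strand), encodes the D-box activator that the clock drives through E-boxes in its gene. WT sham had 149.9, 84.6, 101 and 102 CPM and WT TAC 142, 8.50, 73.2 and 41.4 CPM. JP2CR sham had 25.2, 22.4, 83.8 and 153 CPM and JP2CR TAC 61.0, 119.8, 92.2 and 118 CPM. The groups overlap within each genotype, and the log2 fold changes of -0.73 (SE 0.59) in WT and 0.47 (SE 0.59) in JP2CR mice were not called. Dbp shares 539 exon bases (18.0%) with the antisense gene Sphk2, at 20.6 to 35.1 CPM in all libraries, which makes its count uncertain in the same way as that of Nr1d1.

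Hlf, on chr11:90336536-90390895 (minus strand), encodes hepatic leukemia factor, another D-box activator. It had 67.7, 48.3, 61.7 and 56.9 CPM in WT sham and 36.7, 10.3, 21.3 and 18.1 CPM in WT TAC, with no overlap between the groups. JP2CR sham had 28.4, 34.4, 72.2 and 59.5 CPM and JP2CR TAC 18.6, 39.4, 31.0 and 48.8 CPM, which overlap. The log2 fold change in WT was -1.45 (SE 0.34, 95% interval -2.16 to -0.73, edgeR adjusted p = 0.00233), the smallest p of the 10 genes, and in JP2CR mice it was -0.50 (SE 0.33, adjusted p = 0.244).

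Per kilobase of exon, which allows levels to be set between genes, WT sham means ran from Nr1d1 at 58.2 CPM per kb through Dbp at 36.6, Nr1d2 at 27.7 and Per1 at 24.2 to Hlf at 8.78, Per3 at 6.33, Per2 at 4.31, Clock at 3.43, Arntl at 1.69 and Npas2 at 1.33. In JP2CR TAC the order was led by the same 4 genes, with Nr1d1 at 47.0, Dbp at 32.6, Nr1d2 at 29.5 and Per1 at 20.6 CPM per kb, and closed by Arntl at 1.18 and Npas2 at 1.07. Over the 4 WT sham libraries, Nr1d1 stood above Dbp, Per1 above Hlf, and Clock above Arntl without overlap, and the other neighbours in the order overlapped.

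**Figure D2:**
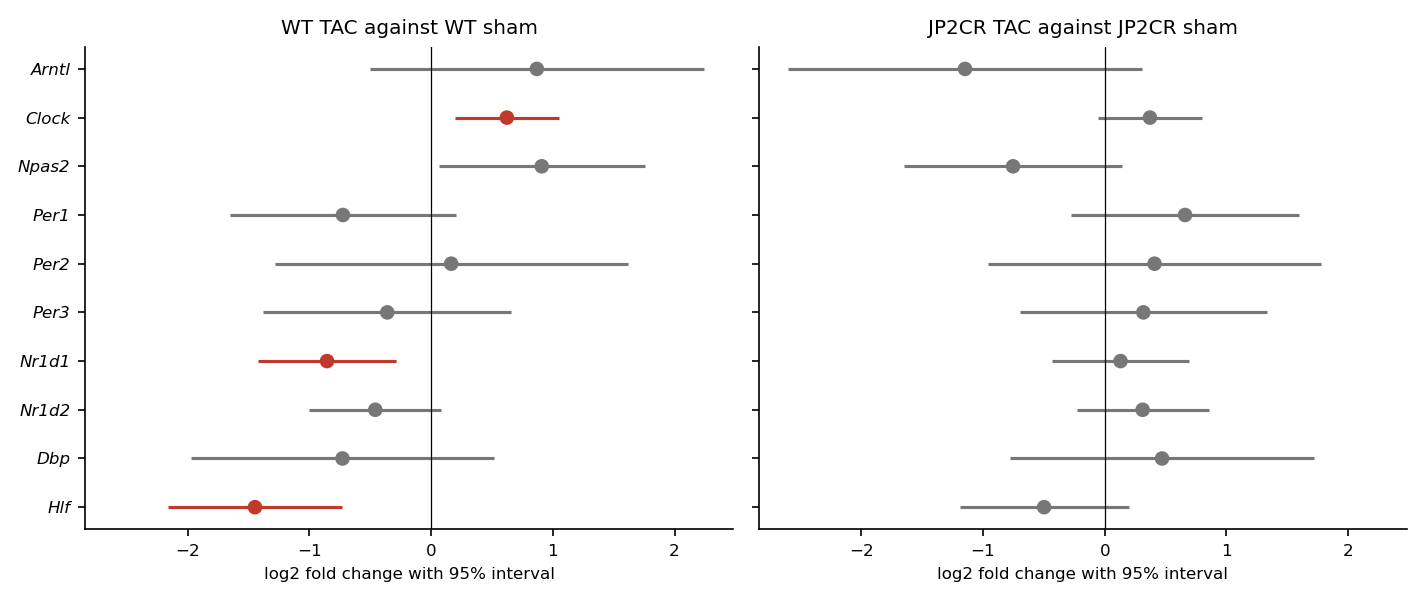
Log2 fold change of TAC against sham for each clock gene in WT (left) and JP2CR mice (right), with 95% intervals from the edgeR fit; red marks the genes called at an adjusted p under 0.05. Only Clock, Nr1d1 and Hlf in WT are red, and the intervals of Arntl and Per2 are the widest.

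The first comparison asked how pressure overload changed the clock genes in WT hearts. Of the 10 genes, 1 (Clock) was called higher and 2 (Nr1d1 and Hlf) were called lower, at an adjusted p under 0.05. Over all genes tested the same comparison called 21.1% higher and 20.8% lower, so the members' shares are not above the background. The median log2 fold change was -0.41 for the 10 genes and 0.00 for all genes. DESeq2 and limma voom also called 3 of the 10.

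In JP2CR hearts TAC called none of the 10 genes, against a background of 20.7% higher and 20.7% lower. None had an unadjusted p under 0.05, and DESeq2 and limma voom called none either. The members' median log2 fold change was 0.31, against 0.00 for all genes. The widest intervals were those of Arntl, from -2.60 to 0.31, and Per2, from -0.95 to 1.77, so that changes of several fold in either gene were not detectable in this group.

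The difference between the TAC effects, JP2CR minus WT, was called for none of the 10, against 0.0887% of all genes called higher and 0.0296% lower. Its unadjusted p was under 0.05 for 5 genes: Npas2 (log2 difference -1.66, SE 0.59), Nr1d1 (0.99, SE 0.38), Per1 (1.38, SE 0.63), Arntl (-2.02, SE 0.95) and Nr1d2 (0.77, SE 0.36). Their edgeR adjusted p-values ran from 0.292 to 0.482. The shares of all genes above are of adjusted calls. The share with an unadjusted p under 0.05 is not given, so the count of 5 has no background beside it. DESeq2 and limma voom called none. For Clock the difference was -0.25 (95% interval -0.85 to 0.35) and for Hlf 0.95 (-0.05 to 1.94), so the calls in WT mice and their absence in JP2CR mice do not show that the genotypes differ.

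Between genotypes after sham, none of the 10 genes was called, against 0% higher and 0.0961% lower of all genes, and none had an unadjusted p under 0.05. Per1 had the lowest p, with a log2 fold change of -0.89 (SE 0.45, edgeR adjusted p = 0.646). Between genotypes after TAC, none was called either, against 0.362% higher and 0.288% lower. There Npas2 was at -1.23 (SE 0.41, edgeR adjusted p = 0.194) and Nr1d2 at 0.55 (SE 0.26, adjusted p = 0.383), the 2 genes with an unadjusted p under 0.05. The share of all genes at that unadjusted level is not given here. DESeq2 and limma voom called none in either comparison. The comparisons share libraries with each other, so their values are set side by side and not counted as separate evidence.

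The clock genes spread widely within groups. The median SD of log2 CPM over the 10 clock genes was 0.23 in the WT sham group, against 0.10 over 12007 genes. It was 1.02 against 0.11 in the WT TAC group, 0.91 against 0.14 in the JP2CR sham group, and 0.49 against 0.11 in the JP2CR TAC group. In WT TAC the SD was 1.72 for Dbp and 1.64 for Arntl, both above that of 99.9% of genes, and in JP2CR sham it was 1.99 for Per2, above 99.8%. Nr1d1 and Per1 were the tightest in WT sham, with an SD of 0.08 and 0.09, below the median of all genes. No library of any group stood out for any of the 10 genes by Dixon's test for 4 samples, in 40 tests.

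The ratio of Dbp to Arntl counts placed the libraries on 1 scale, since one gene of the pair peaks when the other is low. It was 15.1, 5.22, 8.03 and 8.35 in WT sham, and 47.0, 0.202, 3.25 and 1.63 in WT TAC. JP2CR sham had 0.816, 0.619, 36.7 and 16.2, and JP2CR TAC 3.48, 29.1, 9.26 and 30.8. WT TAC 2 and JP2CR sham 1 and 2 held more Arntl than Dbp reads, and the other 13 libraries held more Dbp. The 4 groups overlap on this scale, and the WT sham libraries span the narrowest part of it.

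**Figure D3:**
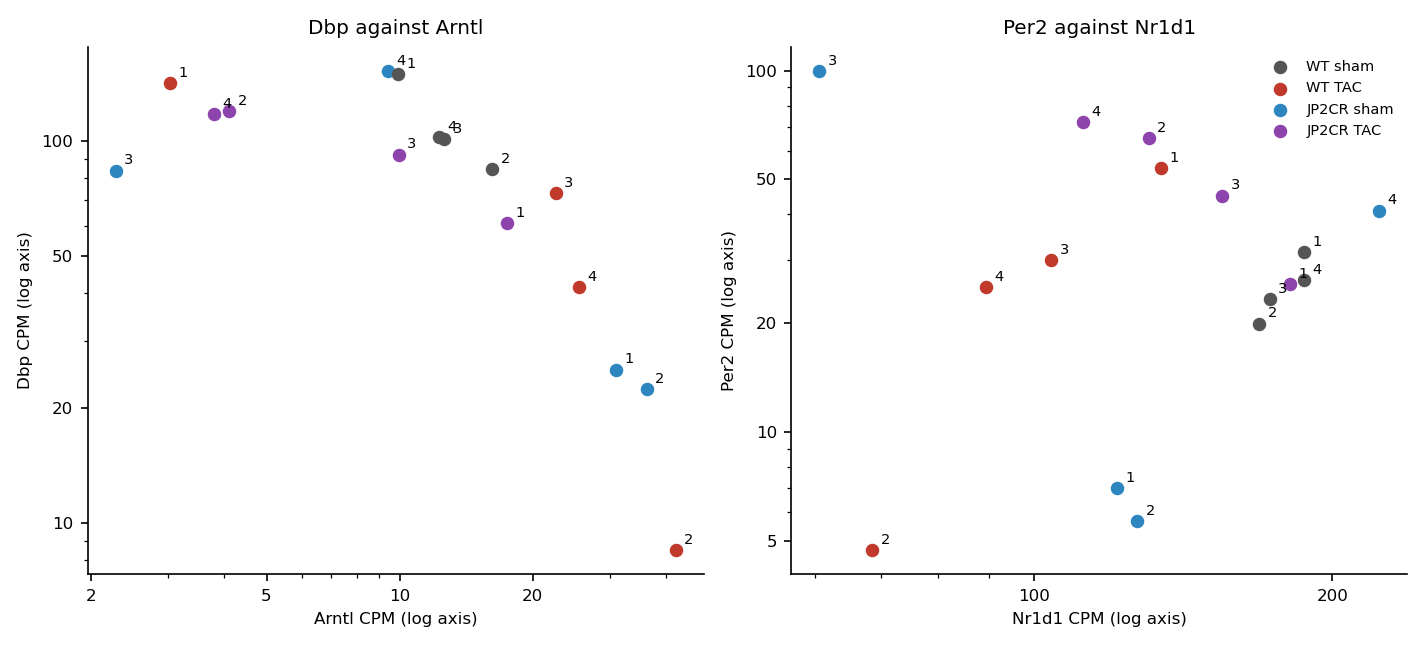
Dbp against Arntl (left) and Per2 against Nr1d1 (right), in CPM on log axes; each point is a library, coloured by group and labelled by replicate number. Dbp falls as Arntl rises, from WT TAC 1 at 142 CPM of Dbp to WT TAC 2 at 8.50, whereas Nr1d1 and Per2 show no common order.

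WT TAC 3 lay between WT TAC 1 and 2 for 10 of 10 clock genes, at a median position of 0.507 and between 0.416 and 0.581 of the way, which is where it lay for other genes too. WT TAC 4 also lay between them for 10 of 10, at a median of 0.371. JP2CR TAC 3 lay between JP2CR TAC 1 and 2 for 9 of 10, at a median of 0.465. The cause was not tested. Without WT TAC 3 and JP2CR TAC 3 the 3 calls in WT stood, with edgeR adjusted p-values of 0.0439 for Clock, 0.0409 for Nr1d1 and 0.0112 for Hlf.

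The pairs of clock genes were then correlated over the 16 libraries, on log2 CPM with a prior count of 2. Of 45 pairs, 39 had an adjusted p under 0.05 in a two-sided permutation test of Pearson's r with 100000 resamples, 21 of them positive and 18 negative. Arntl rose with Npas2 (r = 0.83, rho = 0.90) and Clock (r = 0.66, rho = 0.68) and fell as Per2 (r = -0.90, rho = -0.92), Per3 (r = -0.88, rho = -0.95) and Dbp rose (r = -0.74, rho = -0.81). Dbp rose with Nr1d2 (r = 0.96, rho = 0.92), Per1 (r = 0.96, rho = 0.84) and Per3 (r = 0.93, rho = 0.76), and Clock and Hlf moved against each other (r = -0.90, rho = -0.92). The adjusted permutation p of Pearson's r was 0.000113 for Arntl with Per2, 0.00173 for Arntl with Dbp and 9e-05 for Dbp with Nr1d2, Dbp with Per1 and Clock with Hlf. The raw permutation p of the last 3 pairs, 1e-05, is the smallest that these resamples can give.

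Most of the correlations were also present within groups. With each group's mean taken out and labels permuted within groups, all 39 pairs kept their sign and 36 still passed, with Arntl and Per2 at r = -0.89 and Arntl and Clock at r = 0.91. All 39 also kept their sign without the 2 libraries farthest from the median of the first gene, without the 3 Xist-positive libraries, and without WT TAC 3 and JP2CR TAC 3. The weakest pair without the 2 farthest libraries was Clock with Per2, which went from r = -0.55 to r = -0.21 without WT TAC 2 and JP2CR sham 3 and so rests on those libraries. Groups here hold 4 libraries, too few for an r within each.

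Over the 16 libraries Nr1d1 had the fewest called pairs. All 36 pairs that leave it out were called, and 3 of its 9 pairs were. Its r was 0.01 with Arntl, -0.06 with Clock, 0.07 with Per2, 0.23 with Per3, 0.41 with Hlf and -0.34 with Npas2, none called, and 0.54 with Dbp, 0.53 with Nr1d2 and 0.51 with Per1, called with adjusted permutation p-values of 0.0345, 0.0391 and 0.0471. These 3 no longer passed within groups, where r was 0.37, 0.35 and 0.29. JP2CR sham 3, which had the highest Per2 of all libraries at 99.7 CPM, had the lowest Nr1d1 at 60.7 CPM, next to WT TAC 2 with the lowest Per2 at 4.71 and 68.6 CPM of Nr1d1. Leaving out the 3 Xist-positive libraries, JP2CR sham 3 among them, changed this. Over the other 13 libraries r of Nr1d1 was -0.46 with Arntl, -0.64 with Clock and -0.74 with Npas2, and 0.45 with Per2, 0.64 with Per3, 0.70 with Per1, 0.73 with Dbp, 0.79 with Nr1d2 and 0.80 with Hlf. All 9 signs were then those of the other E-box and D-box genes, so its r depends on whether the Xist-positive libraries are included. In the Xist-negative libraries JP2CR TAC 1, 2 and 3, Nr1d1 (181, 130.4 and 155 CPM) still had the order of Arntl (17.5, 4.11 and 9.96 CPM). The cause was not tested.

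**Figure D4:**
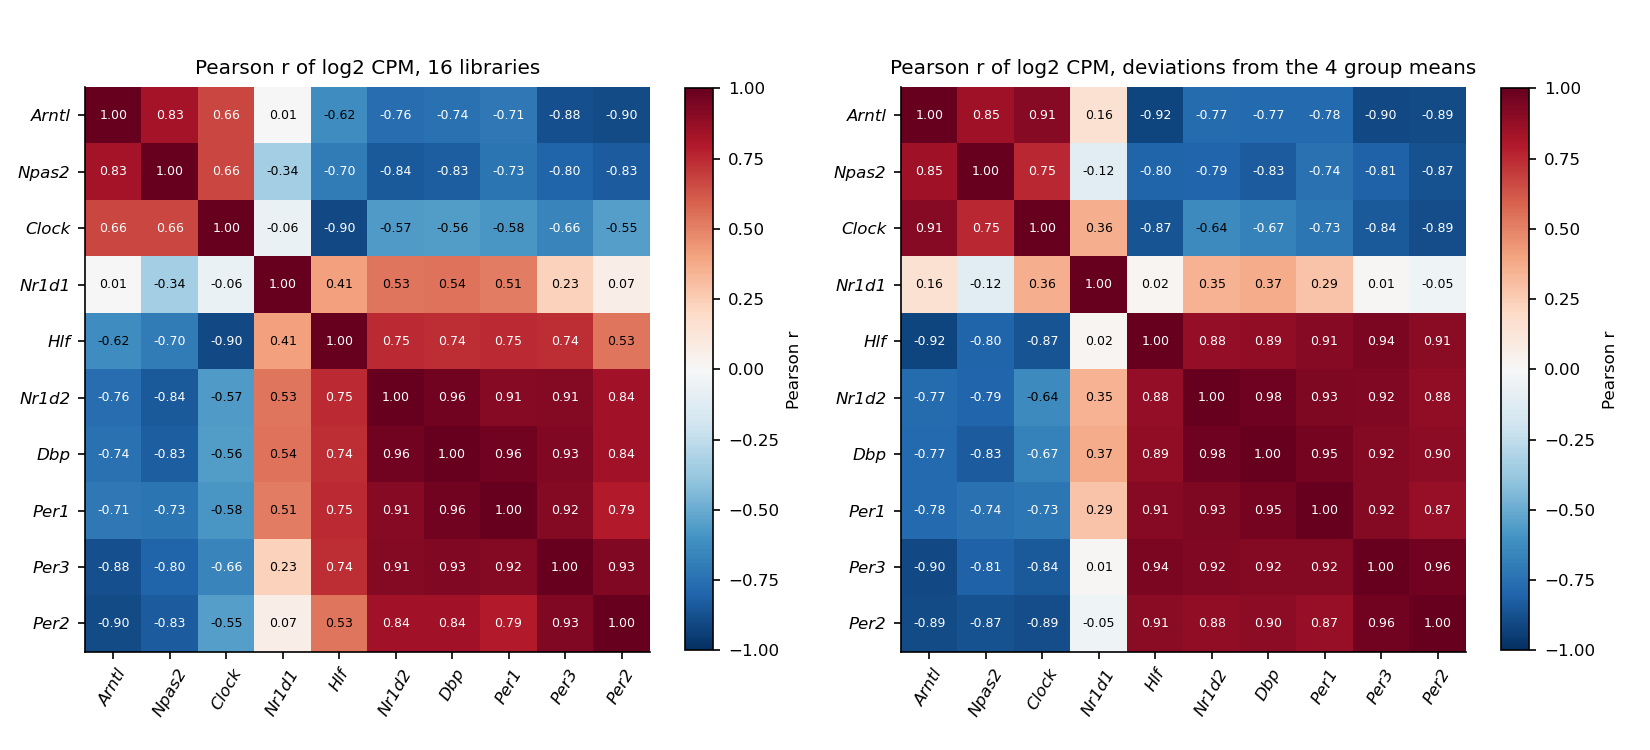
Pearson r between the log2 CPM of each pair of clock genes over the 16 libraries (left) and over their deviations from the 4 group means (right), from -1 in blue to 1 in red. Arntl, Npas2 and Clock form a red block, the period genes, Dbp, Nr1d2 and Hlf form another, the blocks are blue to each other, and the row of Nr1d1 is pale.

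Since Clock and Hlf were correlated with Arntl and Dbp over the libraries, the TAC effect was also fitted with the log2 CPM of Arntl and Dbp as covariates, an alternative added after the values had been seen. The adjustment is linear and uses members measured in the same libraries, and no libraries were matched on them. In this fit Clock was higher after TAC by 0.55 (SE 0.11, edgeR adjusted p = 0.000881) in WT and by 0.57 (SE 0.10, adjusted p = 0.000223) in JP2CR mice. Hlf was lower, with a log2 fold change of -1.19 (SE 0.13, adjusted p = 2.01e-06) in WT and -0.83 (SE 0.11, adjusted p = 1.71e-05) in JP2CR mice. The other 6 genes were not called in either genotype, and Nr1d1 lost its call in WT (-0.34, SE 0.20, adjusted p = 0.205). This fit called 18.7% of all genes higher and 18.2% lower in WT, and 21.6% higher and 21.3% lower in JP2CR mice. The difference between the genotypes' effects was 0.02 (SE 0.16) for Clock and 0.36 (SE 0.18, adjusted p = 0.484) for Hlf. With the level of Nr1d1 as a further covariate, Clock was at 0.69 in WT and 0.53 in JP2CR mice and Hlf at -1.25 and -0.82, all 4 called.

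Among the fits that each leave out 1 library, the WT calls changed most without WT TAC 1 or 2, the libraries at opposite ends of the Dbp to Arntl scale. Without WT TAC 1, Clock (0.71) and Npas2 (1.15, edgeR adjusted p = 0.0240) were called higher and Per1 (-1.25, adjusted p = 0.0308), Nr1d1 (-1.04), Nr1d2 (-0.73, adjusted p = 0.0270) and Hlf (-1.84) lower. Without WT TAC 2, only Hlf was called (-1.20, adjusted p = 0.00887), with Clock at 0.52 (adjusted p = 0.0672) and Nr1d1 at -0.71 (adjusted p = 0.0571). Without WT sham 4, Clock was at 0.58 (adjusted p = 0.0548). Hlf was called without each of the 16 libraries in turn, with log2 fold changes from -1.84 to -1.20. The share of all genes called in each of these fits is not given here.

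**Figure D5:**
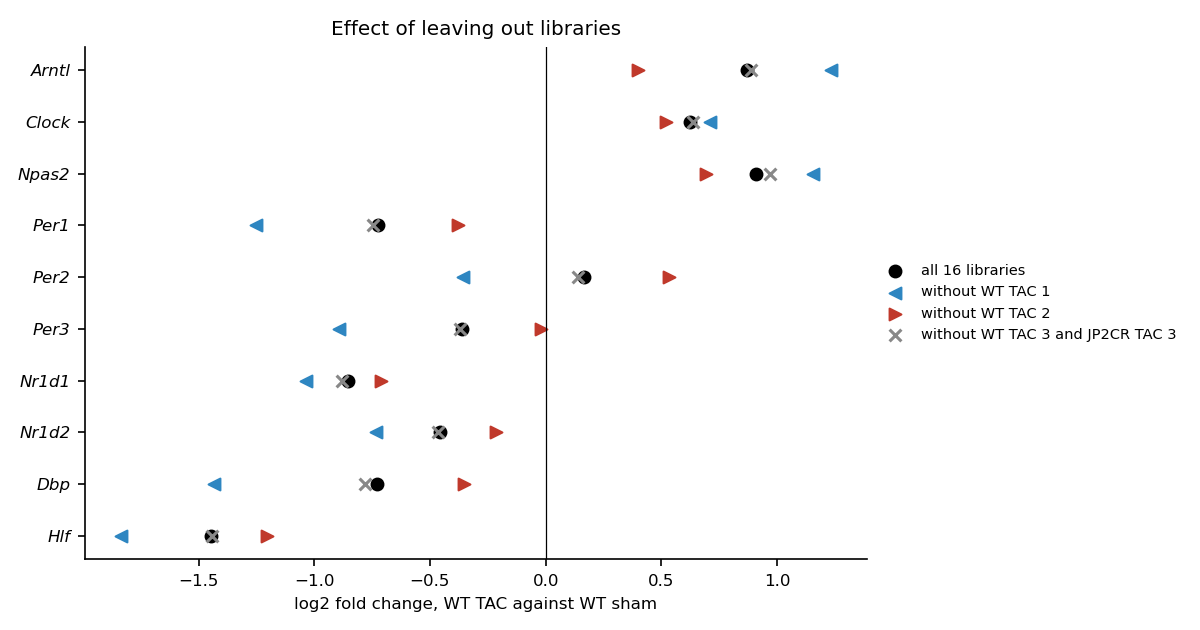
Log2 fold change of TAC in WT mice for each clock gene with all 16 libraries, without WT TAC 1, without WT TAC 2, and without WT TAC 3 and JP2CR TAC 3. Leaving out WT TAC 1 or 2 moves the values of Arntl, Dbp, Per1, Per2 and Per3 in opposite directions, and leaving out WT TAC 3 and JP2CR TAC 3 moves them little.

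The 3 libraries with Xist counts bear on the JP2CR comparisons, since JP2CR sham 3 and 4 are 2 of its 4 sham libraries. Without them, TAC in JP2CR mice called Dbp (1.93, edgeR adjusted p = 0.0350) and Per2 (2.82, adjusted p = 0.00336) higher and Npas2 (-1.42, adjusted p = 0.00301) and Arntl (-1.65, adjusted p = 0.0344) lower, against 18.5% of all genes called higher and 17.4% lower. The sham group then holds JP2CR sham 1 and 2, the libraries with more Arntl than Dbp reads. The difference of the TAC effects was then called for Nr1d1 (1.19, adjusted p = 0.0120) and Npas2 (-2.33, adjusted p = 0.00704), and Npas2 was called higher after TAC in WT (0.91, adjusted p = 0.00784). Between genotypes after TAC, Nr1d1 (0.66, adjusted p = 0.0311) was then called higher and Npas2 (-1.21, adjusted p = 0.0354) lower. Leaving out JP2CR sham 3 alone also called Per2 higher (1.62, adjusted p = 0.0438) and Npas2 (-1.05) and Arntl (-1.55) lower after TAC in JP2CR mice. Apart from TAC in JP2CR mice without the 3 libraries, the share of all genes called in these fits is not given. Those calls cannot be set against a background. In JP2CR sham the Dbp to Arntl ratio was 36.7 and 16.2 in the Xist-positive libraries 3 and 4, and 0.816 and 0.619 in libraries 1 and 2. Within that group Xist and the clock ratio cannot be told apart. In JP2CR TAC the ratio was 30.8 in the Xist-positive library 4. It was 3.48, 29.1 and 9.26 in libraries 1, 2 and 3, which had 0.0807 CPM of Xist or less. The part of Xist or of the clock ratio in these calls was not tested.

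Markers of other cell types moved with TAC in WT mice beside Clock, Nr1d1 and Hlf. Over all genes TAC called 21.1% higher and 20.8% lower in WT mice, and 20.7% each way in JP2CR mice. All 10 adipocyte markers were called lower, from a summed 25.8 to 244 CPM in WT sham to 0.531 to 10.4 CPM in WT TAC, where Ucp1 and Retn were at 0 in every library. In JP2CR mice none of the 10 was called, and their sum was 6.04 to 278 CPM after sham and 2.90 to 103 CPM after TAC. Of 12 atrial markers 9 were called lower and 1 higher in WT, though their sum, 5096 to 6987 CPM in WT sham and 5818 to 9633 CPM in WT TAC, overlapped. A sum weighs the most abundant markers most. The mean log2 CPM of the atrial markers was 6.63 to 7.67 in WT sham and 4.45 to 5.56 in WT TAC, without overlap. In JP2CR mice 5 atrial markers were called lower and 0 higher. The summed cardiomyocyte markers were 118424 to 122872 CPM in WT sham and 91876 to 98341 CPM in WT TAC, and in bulk tissue fewer cells of a type and less RNA per cell cannot be told apart. Of 10 macrophage markers 9 were called higher in each genotype, from a summed 324 to 361 CPM in WT sham to 445 to 489 CPM in WT TAC. The 6 nerve and Schwann cell markers tested were all called lower in WT, and 5 of them in JP2CR mice. All 8 of that list summed to 32.1 to 39.6 CPM in WT sham and 8.55 to 12.1 CPM in WT TAC. Of the smooth muscle and pericyte markers 1 was called higher and 6 lower in WT, and 1 higher and 4 lower in JP2CR mice. Their sum was 2907 to 3188 CPM in WT sham and 4182 to 4316 CPM in WT TAC. Their mean log2 CPM went the other way, from 6.83 to 7.26 in WT sham to 6.47 to 6.78 in WT TAC. The mesothelial markers summed to 75.3, 82.4, 76.4 and 79.3 CPM in WT sham 1 to 4. Their sums were 85.2, 26.4, 58.9 and 33.3 CPM in WT TAC 1 to 4. In the JP2CR libraries they were 81.2, 64.2, 78.8 and 63.9 CPM after sham and 75.7, 69.5, 75.7 and 62.6 CPM after TAC. In WT TAC this was the order of the libraries for Dbp, and in the other groups it was not. The part of these other cell types in the clock gene values was not tested. With the means of the atrial and adipocyte markers as covariates, Nr1d1 was called lower (-1.81, edgeR adjusted p = 0.00208), Hlf was at -1.23 (adjusted p = 0.108) and Clock at 0.24 (adjusted p = 0.680).

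Other genes of the clock were counted in a list chosen with these data known. Of 21 further core and loop genes, TAC in WT called 3 higher and 3 lower, where 21.1% of all genes were higher and 20.8% lower. Timeless, which acts at replication forks and binds the PER and CRY complex, rose by 0.70 on the log2 scale (SE 0.09, edgeR adjusted p = 4.16e-06) and Rora, the activator that competes with the REV-ERBs, by 0.28 (SE 0.08). Hdac3, the deacetylase that REV-ERB recruits, fell by 0.27 (SE 0.05), and the deacetylase Sirt1 fell by 0.34 (SE 0.09). In JP2CR mice, where the background was 20.7% each way, 4 were called higher and 3 lower, among them Rora at 0.35, Csnk1d, a kinase of PER proteins, at 0.21, Arntl2, a paralog of Arntl, at -0.58 and Hdac3 at -0.16. The medians of the list were 0.01 and -0.03, against 0.00 for all genes in both.

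Of 18 genes that the clock is known to drive in tissues, TAC called 1 higher and 9 lower in WT and 2 higher and 4 lower in JP2CR mice, beside a background of 21.1% and 20.8% in WT and 20.7% each way in JP2CR mice. Kcnip2, the subunit of the transient outward potassium channel whose rhythm depends on Klf15, was at -0.62 (SE 0.07, edgeR adjusted p = 1.8e-06) in WT and -0.73 (SE 0.07, adjusted p = 4.41e-07) in JP2CR mice. Dgat2, of triglyceride synthesis, was at -0.84 and -0.71, and Nampt, of NAD synthesis, at -0.52 and -0.48. The cell cycle inhibitor Cdkn1a was higher in both, at 1.06 and 1.15. These genes were named by p-value and followed Dbp little over the 16 libraries. Their r with Dbp was 0.13 for Kcnip2, 0.36 for Dgat2, 0.13 for Nampt and -0.17 for Cdkn1a. Another 8 genes of the list had an r with Dbp beyond 0.5 in size. The medians were -0.35 in WT and 0.08 in JP2CR mice.

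Glucocorticoids and acute stimuli also act on Per1, so genes of both kinds were counted. Of 12 glucocorticoid-responsive genes 3 were called higher and 3 lower by TAC in WT, and 8 higher and 0 lower in JP2CR mice. Of 19 immediate early genes 4 were called higher and 6 lower in WT, and 13 higher and 0 lower in JP2CR mice. The background for both lists was 21.1% higher and 20.8% lower in WT and 20.7% each way in JP2CR mice. In JP2CR sham against WT sham, which share libraries with these comparisons, the immediate early genes had a median log2 fold change of -0.71, and Klf2, a flow-responsive transcription factor (-0.92, edgeR adjusted p = 0.00206), and Nr4a2, an orphan nuclear receptor (-1.35, adjusted p = 0.0199), were called lower, against 0.0961% of all genes. The difference of the effects was called for Sgk1, a kinase induced by glucocorticoids, at 1.19 (SE 0.17, edgeR adjusted p = 0.0128), which was at -0.37 in WT and 0.82 in JP2CR mice. Sgk1 was also called lower in JP2CR sham than in WT sham (-0.75, adjusted p = 0.0160 by edgeR). Fkbp5, a chaperone of the glucocorticoid receptor, was called higher when JP2CR TAC was set against WT TAC, at 1.47 (SE 0.30, adjusted p = 0.0313). Their part in the values of Per1, which had a log2 difference of TAC effects of 1.38, was not tested.

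Genes were also ranked by their r with Arntl and with Dbp over the 16 libraries, among 11578 genes whose log2 CPM averaged 1 or more. The members and predicted-gene symbols were left out of this ranking, and the genes of the other lists were not. The genes most like Arntl were Spon2 (r = 0.94), Rnf144a (0.93), Aplnr (0.91), Dtx4 (0.89) and Leo1 (0.89). Those most like Dbp were Tcap (r = 0.96), Ciart (0.96), Usp2 (0.91), Arrdc2 (0.90) and Klf9 (0.90). Ciart is on the list of further core genes, Usp2 on that of output genes and Klf9 on that of glucocorticoid-responsive genes. Ciart and Usp2 therefore also enter the counts of core and output genes below. Tcap, the titin cap protein of the sarcomere, ranged from 591 to 2279 CPM, and Spon2, a secreted matrix protein, from 1.76 to 19.7 CPM. Of the 21 further core genes 7 had an r with Dbp beyond 0.5 in size, as did 8 of the 18 output genes, against 6.65% of all genes tested. Among them, chosen after their values were seen, Nfil3, the D-box repressor, was at -0.89, and Tef, a PAR bZIP factor related to Dbp and Hlf, was at 0.87. All these genes were measured in the same 16 libraries, which differ in depth and in the Dbp to Arntl ratio, and the correlations are given as a description.

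The authors' deposited table gives its own TAC comparisons. In the authors' deposited table the log2 fold change in WT was 0.61 for Clock (adjusted p = 5.81e-09), 0.68 for Npas2 (adjusted p = 0.0389), -0.78 for Nr1d1 and -1.06 for Hlf, so it holds Npas2 below 0.05, which was not called here. In JP2CR mice the authors' deposited table has Clock at 0.30 (adjusted p = 0.370), Hlf at -0.33 (adjusted p = 0.389) and Nr1d2 at 0.29 (adjusted p = 0.197).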

How the data were processed

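Groups and replicate numbers came from the sample titles. The labels do not tie libraries to named mice, so the spread that p-values measure here is that between libraries and may be in part technical. The values are whole-number read counts per gene as deposited by the authors. Per the submitters' processing notes the tools included DESeq2 1.6.3, STAR 2.5.0b and Picard 1.128, with the mm10 build; what each did, and whether the counting used strand, is not given in the sources used here. The authors also deposited log2 fold changes and adjusted p-values of TAC in each genotype, by a method not given in the sources used here.

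Counts were tested with edgeR 4.0.16 (R 4.3.3): filterByExpr by group, TMM factors, a mean per group over 16 libraries and the quasi-likelihood F test, with Benjamini-Hochberg adjustment over 13522 genes and calls at an adjusted p under 0.05. The standard error is the log2 fold change over the square root of F. Log2 CPM used a prior count of 2. Correlations used scipy 1.17.1, and exon lengths GENCODE M21. DESeq2 1.42.0, limma 3.58.1 voom and other scalings and filters were alternatives. The scripts were tested on simulated data.

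The members and all gene lists were chosen with earlier results of these data known. All 10 members were named. Of the other lists, up to 4 genes called in a comparison were named by p-value, and the 5 genes most like Arntl and Dbp.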

Additional observations from a re-analysis of the deposited data

How the results depend on the processing

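The number of clock genes called higher by TAC in WT (1) was 2 with only the compared groups in the fit, without the 3 Xist-positive libraries, and without those plus WT TAC 3 and JP2CR TAC 3 (5 in all), and 0 at an adjusted p under 0.01 and with atrial and adipocyte covariates. The number called lower (2) was 1 at an adjusted p under 0.01, with those covariates, with Arntl and Dbp as covariates and with Nr1d1 added to them. In JP2CR mice the number higher (0) was 2 without the 3 libraries, 1 without the 5, 1 with Arntl and Dbp and 2 with Nr1d1 added, and the number lower (0) was 2, 1, 1 and 1. Without the 3 libraries the difference of the TAC effects, and JP2CR TAC against WT TAC, each gained 1 higher and 1 lower. The share of all genes called in these comparisons without the 3 libraries is not given. Leaving out each library gave 0 to 2 higher and 1 to 4 lower in WT, and 0 to 1 and 0 to 2 in JP2CR mice. With Nr1d1 added, the further gene was Per2 (0.39, adjusted p = 0.0441). Other scalings and filters, DESeq2 and voom kept these counts. Of the single-gene and single-pair values 1517 kept their direction and side of the threshold, 25 gained a call and 9 lost one. None that was called changed sign, but 32 that were not called did. With the replicate block, the same 3 genes were called in WT (Clock 0.63, Nr1d1 -0.87 and Hlf -1.46; counts 1 higher and 2 lower) and 0 elsewhere; the correlation of same-numbered libraries' deviations was -0.19 to 0.11 and 4 of 24 were best with their own number, so the numbers do not pair the libraries. Depth sets a floor of 0.185 to 0.314 CPM (3 counts), and the lowest level of a clock gene was 2.28 CPM.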
